A study of Mus musculus with 2 samples.

Results

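The genes described here build and run mitosis: 57 mouse genes of the mitotic spindle, the kinetochore and cytokinesis, taken as a fixed list of symbols and measured by every non-control probe that the array files name for them. All 57 were on the array, among 24892 named genes, through 115 probes, and 21 of them had a single probe while 36 had several, up to 5. They were compared between 2 cell fractions of Peyer's patches, clusters of lymphoid follicles in the wall of the mouse small intestine. Enzyme digestion released the cells, and a cell sorter parted them by GFP expressed as a reporter of S100A4, which binds calcium and is often used to mark fibroblasts. The study asked how expression differs between the S100A4-positive and the S100A4-negative fraction.

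Both fractions came from S100A4-GFP transgenic mice of strain C57BL/6, so the reporter transgene is shared by the negative cells and is no difference between the groups. Neither fraction is a pure cell type: the positive fraction holds whatever cells drive the reporter, and the negative fraction holds all other cells that the digestion released. Age, the number of mice and whether mice were pooled are not given in the sources used here. Each fraction was hybridised to 1 array of 60-base probes labelled with Cy3, so no difference has a replicate check, and no p-value is given. Fixed sizes of difference, 2-fold and 4-fold, stand in for a test.

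Mitosis is a relay of kinases, motors and proteases. Cyclin-dependent kinase with cyclins A and B starts it, polo and aurora kinases shape the spindle, kinetochores tie chromosomes to microtubules, and the anaphase-promoting complex marks securin and cyclin B for destruction so that sister chromatids part and the cell divides. Most of these genes are transcribed late in the cell cycle, when the MuvB core bound to B-Myb and then FoxM1 acts at promoters with a CHR element, often beside CCAAT boxes bound by NF-Y, and in resting cells the DREAM complex represses them through the same promoters. In Peyer's patches, cycling cells are known above all from germinal centres, where B cells divide, and the crypts of the nearby epithelium divide as well.

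The promoters of the members are shown because these elements are what many of the genes have in common apart from their function. RefSeq promoter sequences of build GRCm38.p6, each running from 250 bases before to 50 bases after a transcription start, matched 47 of the 57 members. Promoters of Aurkb, Ccna2, Cdc25c, Foxm1, Incenp, Kif20a, Ska1, Smc4, Spc24 and Tpx2 were not used here. The lines give the 150 bases from 120 before to 30 after the start, read 5′ to 3′ on the gene's strand, for the gene of each role with the largest difference among those with a promoter, and for Pttg1, the member that stands apart. Capitals mark a CHR (TTTGAA, or TTCAAA on the other strand), a CHR-like element (TTCGAA) or a CCAAT box (CCAAT, or ATTGG on the other strand), and adjoining capitals in Cdca8 are a CHR and a CCAAT box that overlap by 1 base.
Cdc25b, chr2:131186828-131186977, plus strand: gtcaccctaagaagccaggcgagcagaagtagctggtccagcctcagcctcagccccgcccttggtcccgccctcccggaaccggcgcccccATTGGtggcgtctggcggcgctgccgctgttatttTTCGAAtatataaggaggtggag
Cenpf, chr1:189688057-189688206, minus strand: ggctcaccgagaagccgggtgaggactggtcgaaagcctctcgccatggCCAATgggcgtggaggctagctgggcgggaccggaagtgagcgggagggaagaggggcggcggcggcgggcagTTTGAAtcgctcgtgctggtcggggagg
Kif15, chr9:122950961-122951110, plus strand: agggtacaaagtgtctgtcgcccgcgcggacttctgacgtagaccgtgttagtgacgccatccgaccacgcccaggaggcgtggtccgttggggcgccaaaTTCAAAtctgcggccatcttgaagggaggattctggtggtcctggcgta
Cdca8, chr4:124936888-124937037, minus strand: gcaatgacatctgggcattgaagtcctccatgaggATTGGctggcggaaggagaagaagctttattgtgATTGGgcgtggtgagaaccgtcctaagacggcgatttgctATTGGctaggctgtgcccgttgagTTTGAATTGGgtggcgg
Prc1, chr7:80294331-80294480, plus strand: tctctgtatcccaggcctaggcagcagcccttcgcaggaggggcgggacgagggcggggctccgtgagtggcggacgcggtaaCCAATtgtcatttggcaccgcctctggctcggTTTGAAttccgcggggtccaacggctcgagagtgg
Cdc20, chr4:118437314-118437463, minus strand: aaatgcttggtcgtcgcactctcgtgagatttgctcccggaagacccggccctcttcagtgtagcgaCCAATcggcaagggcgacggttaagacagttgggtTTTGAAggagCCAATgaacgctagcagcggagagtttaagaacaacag
Ncapg, chr5:45669805-45669954, plus strand: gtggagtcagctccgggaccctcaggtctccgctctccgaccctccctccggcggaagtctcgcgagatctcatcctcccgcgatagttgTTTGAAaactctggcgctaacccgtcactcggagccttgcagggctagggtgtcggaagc
Ttk, chr9:83834569-83834718, plus strand: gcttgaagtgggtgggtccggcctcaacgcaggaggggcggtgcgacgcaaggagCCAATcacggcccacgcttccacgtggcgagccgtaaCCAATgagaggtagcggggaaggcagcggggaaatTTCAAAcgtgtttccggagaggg
Mybl2, chr2:163054515-163054664, plus strand: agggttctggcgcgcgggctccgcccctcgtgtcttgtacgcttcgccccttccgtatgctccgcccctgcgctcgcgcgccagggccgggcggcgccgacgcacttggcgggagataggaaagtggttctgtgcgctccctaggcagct
Pttg1, chr11:43425952-43426101, minus strand: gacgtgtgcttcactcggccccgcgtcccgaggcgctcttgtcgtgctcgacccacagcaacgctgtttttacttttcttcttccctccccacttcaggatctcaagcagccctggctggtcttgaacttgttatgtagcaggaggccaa

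The CHR lay close to the start in most of the promoters printed. It began 3 bases into the transcript in Cenpf, 8 in Ttk and 14 in Cdca8, and 5, 18, 19 and 30 bases before the start in Prc1, Cdc20, Kif15 and Ncapg. Cdc25b had the CHR-like TTCGAA 8 bases into the transcript in its place, with a CCAAT box 28 bases before the start. Cdca8 had 4 CCAAT boxes, 85, 51 and 11 bases before the start and 19 bases after it. In Mybl2 and Pttg1 none of these letters stood in the 300 bases searched, which says nothing about whether a factor binds there.

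Over all members with a promoter, 32 of 47 (68.1%) held a CHR in the 300 bases, against 18.1% of 27025 genes and 13.0% of the 12049 genes detected here that have a promoter. A CCAAT box was found in 35 (74.5%), against 37.9% and 38.8%, and both elements in 28 (59.6%), against 7.12% and 5.26%. Within 40 bases before to 50 after the start, a window chosen after the positions were seen, 29 of 47 held a CHR (61.7%), against 4.37% of all genes. At least 2 CCAAT boxes were found in 22 members (46.8%), against 12.2% of all genes. In 17 members neighbouring boxes began 20 to 40 bases apart, a spacing that was not counted over all genes. The promoters of the members were richer in G and C, with a median of 58.7% against 52.7%, a measure that moves with the share of any short word and whose part was not tested. A match is a description of letters, and binding was not measured.

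**Figure D1:**
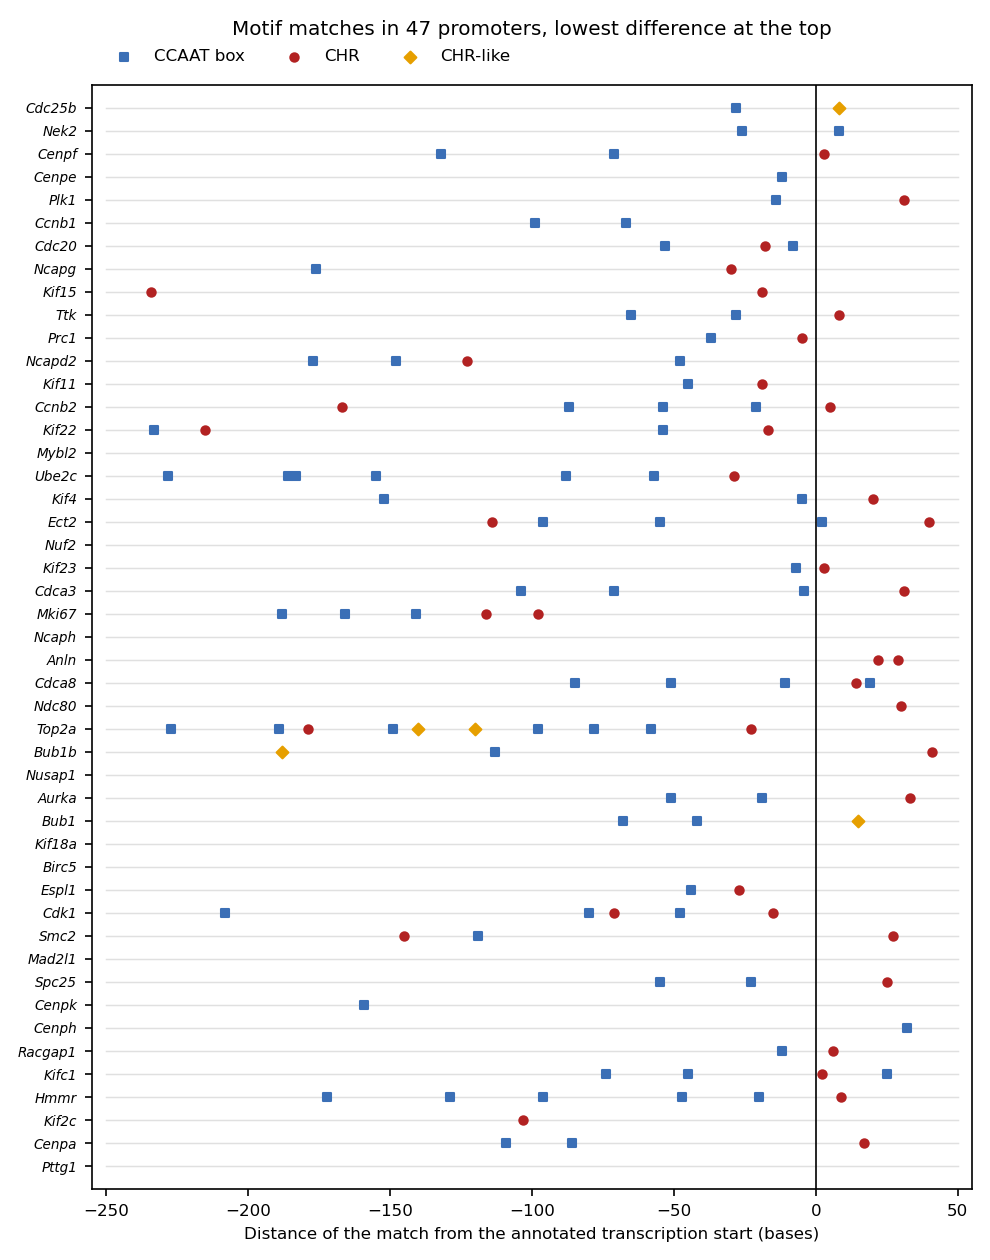
Each line is the 300-base promoter of a member, ordered from the lowest difference at the top to Pttg1 at the bottom, the x axis gives bases from the annotated transcription start, and symbols mark where a CHR (circle), a CHR-like element (diamond) or a CCAAT box (square) begins. CHR symbols gather around the start, and CCAAT boxes lie mostly upstream. Between 40 bases before and 50 after the start, 29 of 47 members hold a CHR (61.7%, against 4.37% of all genes). Within the 120 bases before the start, 31 of 47 members hold a CCAAT box (66.0%, against 22.1% of all genes).

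The sort and the detection of the members come first. S100a4 itself had a signal of 1057 in the negative fraction and 119340 in the positive, a log2 difference of 7.45, in the direction of the labels. Values are processed signal intensities in the scanner's units, and a log2 difference is positive minus negative after each array was divided by its 75th percentile signal, which was 446 for the negative and 287 for the positive fraction. Of 59305 non-control spots, 53.3% (negative array) and 52.3% (positive array) were called well above background, and none was saturated. Of the members, 53 were well above background on both arrays. Another 4 (Nek2, Kif15, Ttk and Kifc1) were so on the negative array alone, and none on the positive array alone. Of all 15278 detected genes, 1135 (7.43%) were seen on the negative array alone and 1138 on the positive array alone. Errors given with a difference are those of the scanner software for 1 spot, with a median of 0.21 over the members, and do not cover variation from mouse to mouse or array to array.

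Almost the whole set of genes was lower in the S100A4-positive fraction. At least 2-fold lower were 56 of 57 members, against 17.0% of all detected genes, and at least 4-fold lower were 45, against 5.0%. None was at least 2-fold higher, although 21.4% of all genes were. The 57th, Pttg1, lay within 2-fold. The median log2 difference was -2.76 with genes seen on 1 array taken at their bound, and -2.72 over the 53 measured on both, beside 0.01 for all genes measured on both. The median signal of the members was 2029 on the negative array, with a range of 62.8 to 15063, and 181 on the positive array, with a range of 12.9 to 5477. Before any scaling, all 57 were brighter on the negative array.

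These lower signals are per total RNA of a mixed fraction, in which fewer cycling cells and less of each transcript per cell cannot be told apart. How the 2 arrays are put on 1 scale sets where 0 lies. Of all genes past 2-fold, 44.3% were lower in the positive fraction on the scale used, 73.1% without scaling and 95.3% on the scale of the E1A spike-in controls, which were 3.51-fold brighter on the positive array. The median of the members lay below that of all genes on each of these scales, and the spike-in scale moves every difference given here by -2.44. With normexp background correction and its offset of 50, which by construction draws dim signals together, the median of the members was -2.21. At least 4-fold lower were then 34 members in place of 45, and 2.58% of all genes in place of 5.0%.

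**Figure D2:**
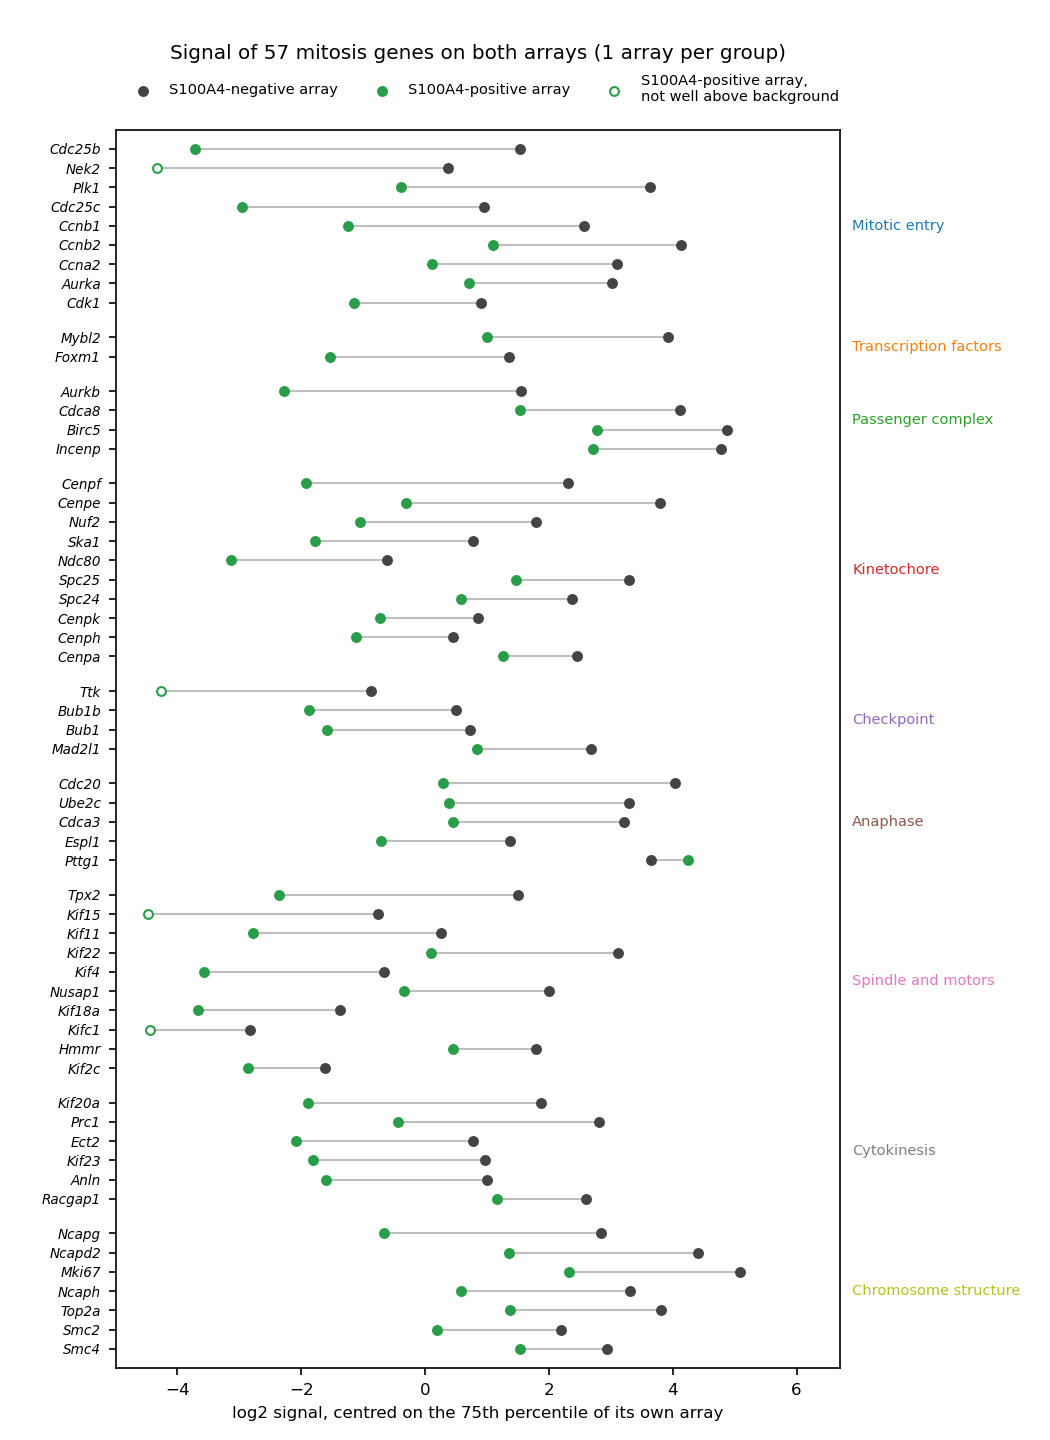
Log2 signal of each of the 57 members, centred on the 75th percentile of its own array (x axis), with genes grouped by role, dark points for the S100A4-negative array, green points for the S100A4-positive array and open points for the 4 genes not well above background there. For 56 genes the green point lies to the left of the dark point by 1 log2 unit or more, and in Pttg1 it lies to the right by 0.61.

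The drivers of mitotic entry had the lowest values of any role, with a median log2 difference of -3.81 at bounds, and all 9 were at least 4-fold lower. Cdc25b, a phosphatase that switches on cyclin-dependent kinase, had a signal of 1283 in the negative and 21.8 in the positive fraction, a difference of -5.24 ± 0.32, or 37.9-fold lower. That was the lowest of all members on the scale used, where 29 of the 13005 genes measured on both arrays had a lower value. After normexp correction Cdc25b had -3.15, and Plk1 (-3.88), Cdc20 (-3.77) and Cenpe (-3.76) were the lowest members. Its other probe was seen on the negative array alone. Nek2, a kinase that parts the centrosomes, had 578 in the negative fraction and was not well above background in the positive, where its own signal was 14.2, which makes it at least 23.7-fold lower, or -2.41 on the log2 scale after normexp correction.

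Plk1, the polo kinase that acts from centrosome to cytokinesis, had signals of 5519 and 219, a difference of -4.02 ± 0.21. Cdc25c, the sister phosphatase of Cdc25b, had 859 and 36.9 (-3.91 ± 0.25), and Ccnb1, cyclin B1, had 2633 and 121 (-3.81 ± 0.21). The kinase that the cyclins switch on was less far apart than its partners. Cdk1 had signals of 831 and 130.1, a difference of -2.04 ± 0.21, while cyclin B2 (Ccnb2) had 7789 and 617 (-3.02 ± 0.20) and cyclin A2 (Ccna2) had 3801 and 309 (-2.99 ± 0.20). Aurka, the aurora kinase of the spindle poles, had 3626 and 468 (-2.32 ± 0.20), whereas Tpx2, which binds and activates it on spindle microtubules, had 1262 and 56.1 (-3.86 ± 0.22).

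Both transcription factors of the list were at least 4-fold lower. Foxm1, the forkhead factor of the late cell cycle, had 1140.1 in the negative and 98.7 in the positive fraction, a difference of -2.90 ± 0.21, or -2.16 as the median over its probes. Mybl2, which encodes B-Myb, had 6793 and 575 (-2.93 ± 0.20).

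The 4 subunits of the chromosomal passenger complex, which corrects faulty attachments and later moves to the midzone, were all at least 4-fold lower. Its kinase Aurkb had signals of 1303 and 58.9, a difference of -3.83 ± 0.22. The borealin gene Cdca8 had 7774 and 833 (-2.59 ± 0.20). The survivin gene Birc5 had 13039 and 1968 (-2.09 ± 0.20), and the scaffold Incenp had 12298 and 1884 (-2.07 ± 0.20). At the probes used, the kinase lay further apart than the 3 subunits that hold it in place, but its dimmer probe (-3.17 ± 0.35) and that of Cdca8 (-2.88 ± 0.22) differed by less than the error of the former.

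Kinetochore genes ranged widely, from -4.22 to -1.19. The median of the 10 was -2.17, all 10 were at least 2-fold lower, and 5 at least 4-fold. The large coiled-coil proteins of the outer corona had the lowest values: Cenpf, with signals of 2204 and 76.0, differed by -4.22 ± 0.22, and Cenpe, a motor that carries chromosomes to the equator, with 6197 and 231, by -4.11 ± 0.21. The members of the inner kinetochore, which sits on centromeric chromatin, were closer between the fractions. Cenpa, the histone H3 variant that marks the centromere, had 2431 and 685 (-1.19 ± 0.20), Cenph had 608 and 133 (-1.56 ± 0.21), and Cenpk had 802 and 174 (-1.57 ± 0.21). Inner kinetochore genes outside the list of members went further both ways. Cenps had -3.45 and Cenpn -2.89, whereas Cenpq had -0.70 and Cenpx 0.27.

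The Ndc80 complex, the microtubule grip of the outer kinetochore, fell between the corona and the inner kinetochore members. Ndc80 had signals of 290.1 and 32.8 (-2.51 ± 0.26) and Nuf2 had 1535 and 139 (-2.83 ± 0.21), the dimer that holds the microtubule. Spc24 had 2301 and 428 (-1.79 ± 0.20) and Spc25 had 4381 and 796 (-1.83 ± 0.20), the dimer that faces the chromosome. The dimers did not keep apart in every reading: a dimmer Spc25 probe gave -2.28 ± 0.23, and after normexp correction Ndc80 had -1.23, Nuf2 -2.57, Spc24 -1.72 and Spc25 -2.01. Ska1, part of the ring that strengthens the grip, had 765 and 83.5 (-2.56 ± 0.21).

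The spindle checkpoint, which holds anaphase back until every kinetochore is attached, had a median of -2.34 over 4 genes. Ttk, the kinase at its head, had 243 in the negative fraction and was not well above background in the positive (15.0), at least 9.93-fold lower. Bub1b had signals of 631 and 78.5 (-2.37 ± 0.22), and the kinase Bub1 had 737 and 95.8 (-2.31 ± 0.21). Mad2l1, the inhibitor of Cdc20, had 2856 and 516 (-1.83 ± 0.20). After normexp correction the 4 genes lay close together, at -1.76 for Bub1, -1.72 for Mad2l1, -1.52 for Ttk and -1.50 for Bub1b.

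Anaphase regulators held both a very low gene and the exception. Cdc20, which brings substrates to the anaphase-promoting complex, had signals of 7326 and 349, a difference of -3.76 ± 0.20, or 13.5-fold lower. Ube2c, the ubiquitin-conjugating enzyme of that complex, had 4386 and 376 (-2.91 ± 0.20), and Cdca3, a trigger of mitotic entry that is itself destroyed by the complex, had 4145 and 392 (-2.77 ± 0.20). Espl1, separase, the protease that cuts cohesin, had 1159 and 176 (-2.08 ± 0.21).

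Pttg1, securin, the inhibitor that keeps separase idle until anaphase, did not share this pattern. Its signals were 5584 and 5477, almost equal before scaling, which gave a difference of 0.61 ± 0.20, and 72.8% of the genes measured on both arrays had a lower difference. The sign of that value depends on the scale and the probe: it was -0.03 without scaling, -1.84 on the spike-in scale and 0.10 as the median over its probes. A dimmer probe of the same gene, with signals of 114 and 55.6, gave -0.40 ± 0.23. On the scale used, neither probe reached 2-fold either way, whereas separase, the enzyme that securin holds, was 4.24-fold lower.

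Motors and other proteins of the spindle had a median of -2.62, with all 10 at least 2-fold and 7 at least 4-fold lower, and of -1.47 after normexp correction. Kif11, the plus-end motor that pushes the poles apart, had signals of 533 and 41.8 (-3.04 ± 0.24). Kif15, which can share that task, had 262 and was not well above background in the positive fraction (12.9), at least 10.72-fold lower. Of the chromosome-arm motors, Kif22 had 3861 and 307 (-3.02 ± 0.20) and the dimmer Kif4 had 282 and 24.3 (-2.90 ± 0.28). After normexp correction the brighter Kif22 kept its value (-3.03), while Kif4 had -1.44, Kif11 -1.67 and Kif15 -1.51.

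Other spindle genes lay closer to 0. Nusap1, which bundles microtubules near chromosomes, had 1779.7 and 227 (-2.34 ± 0.21), and Kif18a, which shortens kinetochore microtubules, had 171 and 22.6 (-2.29 ± 0.31). Kif2c, a depolymerase that frees wrongly attached microtubules, had 145 and 39.5 (-1.24 ± 0.25), and -0.64 after normexp correction. The minus-end motor Kifc1 was dim, with 62.8 in the negative fraction and 13.2, not well above background, in the positive, so that only a bound of at least 2.57-fold lower could be given, which normexp correction brought to -0.26 on the log2 scale. Hmmr, a pole-binding protein that also binds hyaluronan, had 1535 and 394 (-1.33 ± 0.20), yet its other probes reached -2.51.

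Cytokinesis genes had a median of -2.81, with 6 of 6 at least 2-fold and 5 at least 4-fold lower. Kif20a, the motor that brings the passenger complex to the midzone, had signals of 1633 and 77.7 (-3.76 ± 0.22), and Prc1, which bundles midzone microtubules, had 3129 and 213 (-3.24 ± 0.21). Ect2, the exchange factor that switches on RhoA, had 759 and 67.7 (-2.85 ± 0.22), and Anln, the anillin of the contractile ring, had 894 and 94.5 (-2.61 ± 0.21). Of the partners of the centralspindlin complex, the motor Kif23 had 868 and 81.8 (-2.77 ± 0.21), and Racgap1, its GTPase-activating subunit, had 2693 and 644 (-1.43 ± 0.20). As medians over their probes these became -1.34 for Kif23 and -0.92 for Racgap1, so the size of the gap between the partners depends on the probe. The next brightest Kif23 probe (-1.78 ± 0.23) also lay below each Racgap1 probe (-1.43, -0.92 and -0.38). The dim Kif23 probes of cDNA clones had -0.90 and -0.45.

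Among genes of chromosome structure, 7 of 7 were at least 2-fold and 6 at least 4-fold lower, with a median of -2.72. Mki67, whose protein Ki-67 coats mitotic chromosomes and is the common stain for cycling cells, had signals of 15063 and 1432, a difference of -2.76 ± 0.20. Top2a, the topoisomerase that untangles sister DNA, had 6255 and 746 (-2.43 ± 0.20). Condensin I, the loop-forming ring of mitotic chromosomes, has 3 subunits of its own, Ncapg with 3207 and 181 (-3.51 ± 0.21), Ncapd2 with 9485 and 734 (-3.06 ± 0.20) and Ncaph with 4409 and 430.1 (-2.72 ± 0.20). Their order depends on the probe, since as medians over probes Ncapg had -2.60, Ncapd2 -3.02 and Ncaph -2.68, and the dimmer Ncapg probe had -1.68.

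At their brightest probes, the subunits that condensin I shares with condensin II were less far apart. Smc2 had 2029 and 326 (-2.002 ± 0.20) and Smc4 had 3429 and 835 (-1.40 ± 0.20). Of the 3 subunits found only in condensin II, Ncapg2 had 817 and 199 (-1.41), a difference like that of Smc4, Ncapd3 had 916 and 352 (-0.74), and Ncaph2 had 2371 and 1043 (-0.55). With 1 array per fraction, the order within any complex is that of these samples and was not tested.

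**Figure D3:**
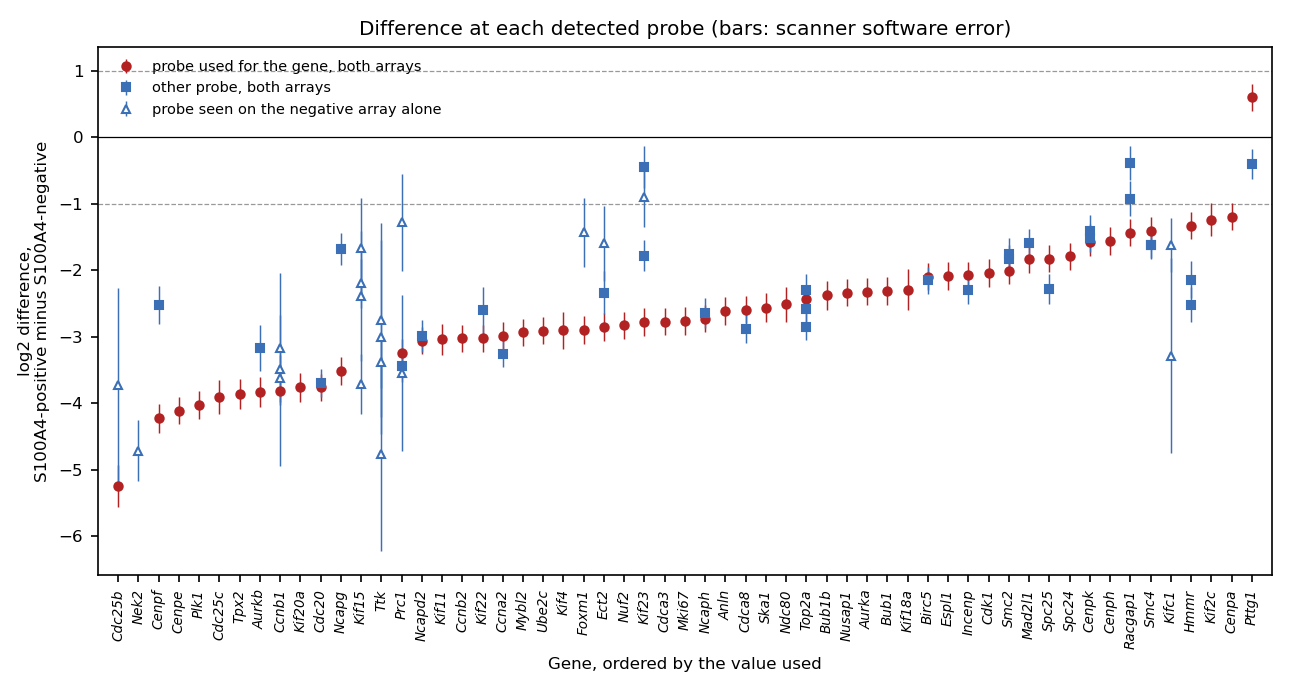
Log2 difference (positive minus negative, y axis) at every member probe well above background on at least 1 array, with genes from the lowest value used at the left to Pttg1 at the right, circles for the probe used, squares for other probes measured on both arrays, open triangles for probes seen on the negative array alone at their measured difference, and bars for the scanner software's error. Of the 84 probes measured on both arrays, 1 lies above 0, and it belongs to Pttg1.

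Separate probes of a gene bind different stretches of its transcript and serve as a technical check. Of 115 member probes, 84 were well above background on both arrays, 20 on the negative array alone, 11 on neither and 0 on the positive array alone. Of the 84, 79 were at least 2-fold and 60 at least 4-fold lower, with a median of -2.51. Over all probes detected on either array, 18.2% were at least 2-fold and 6.81% at least 4-fold lower. For 23 genes more than 1 probe was measured on both arrays. Their probes spanned a median of 0.29 on the log2 scale, under 0.5 for 14 genes, and pointed the same way for 22, all but Pttg1.

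The span exceeded 1 for 6 genes: Kif23 (-2.77 to -0.45), Ncapg (-3.51 to -1.68), Cenpf (-4.22 to -2.52), Hmmr (-2.51 to -1.33), Racgap1 (-1.43 to -0.38) and Pttg1 (-0.40 to 0.61). The value used for a gene is that of its brightest detected probe, which was the lowest of the probes for 13 of the 23. The sequences that gave these spans are shown for Cenpf, Kif23 and Pttg1, as the first 30 of the 60 bases of each probe, in the order in which the file gives them. Positions are the array file's, on mouse build mm9, for the whole probe, and whether a probe lies in coding or untranslated sequence was not determined here. A stretch longer than the probe spans an intron.
Cenpf, probe at transcript position 9621, chr1:191465934-191465993, minus strand: actagttagtctgattgtttcatacacttt
Cenpf, probe at transcript position 324, chr1:191507765-191507824, minus strand: agggtgcagacctgaaaagggaaaatcaaa
Kif23, probe at transcript position 2759, chr9:61767733-61768853, minus strand: tggggagattcagactaaagtcattaaggg
Kif23, probe at transcript position 1458, chr9:61774902-61774961, minus strand: agatttgctgaagtaacccaagaagtggaa
Kif23, probe of a cDNA clone, chr9:61770729-61770788, minus strand: gctctgcctcatgcaagggtgcttaaatga
Pttg1, probe at transcript position 1579, chr11:43233801-43233860, minus strand: ccgcctgtttgttacgatgcagatatttaa
Pttg1, probe at transcript position 818, chr11:43234562-43234621, minus strand: tcatgggaatctggtaagggagtccgttca

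In each of these genes the brighter probe and the dimmer ones gave different sizes. The Cenpf probe at position 9621 of the transcript had signals of 2204 and 76.0, and the probe at position 324 had 199.99 and 22.5, the latter close to the lowest signal called well above background on the positive array, 15.7. The dimmer Kif23 probes had 266 and 49.9 (-1.78 ± 0.23) and, for the cDNA clone, 53.8 and 25.4 (-0.45 ± 0.32). Of the 57 members, 17 had a positive-array signal under 5 times that lowest signal, and the part of background in the spans between probes was not tested.

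**Figure D4:**
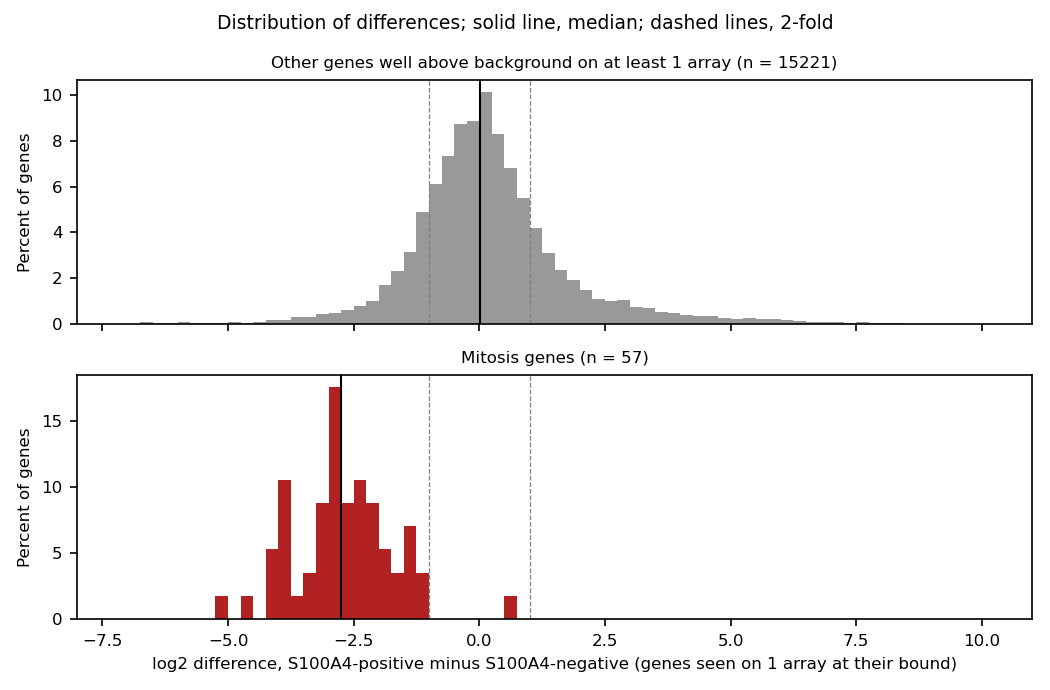
Histograms of the log2 difference (positive minus negative, x axis) as percent of genes, for the 15221 other detected genes (top) and the 57 members (bottom), with genes seen on 1 array at their bound, solid lines at the medians and dashed lines at 2-fold. The other genes centre near 0, the members centre at -2.76, and Pttg1 stands alone at 0.61.

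By size, 19 members had a log2 difference of -3 or lower, 26 lay between -3 and -2, and 11 between -2 and -1. The quartiles of the members were -3.24 and -2.07, and those of all genes measured on both arrays were -0.69 and 0.68. Set beside the promoter classes, the median was -2.77 for the 28 members with a CHR and a CCAAT box. It was -3.81 for the 7 with a CCAAT box and no CHR, of which Cdc25b and Bub1 held a CHR-like element. For the 4 with a CHR and no CCAAT box it was -2.56, and for the 8 with neither -2.31. These classes overlap widely and are given as a description.

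Other lists of cell-cycle genes had medians between those of the members and of all genes. The 67 other late cell-cycle genes detected had a median of -2.32, and 51 of them were 2-fold lower or more and none 2-fold higher. The lowest measured on both arrays were Depdc1b (629 and 20.9, -4.28), Sapcd2 (2369 and 95.7, -3.996) and Aspm, the spindle-pole protein of cortical growth (1309 and 57.9, -3.86). Their promoters held a CHR in 49.1% and a CCAAT box in 69.1% of 55. The 26 genes of DNA replication had a median of -1.70, with 24 lower by 2-fold or more and none higher, from Rrm2, a subunit of the enzyme that makes deoxynucleotides (7727 and 459, -3.44), to Pcna, the sliding clamp of DNA polymerase (20504 and 9900.1, -0.42). Their promoters held a CHR in 14.3% and a CCAAT box in 66.7% of 21.

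Other genes of the kinetochore had a median of -1.28, with 12 of 17 lower by 2-fold or more and none higher. Cenps (695 and 41.0, -3.45) and Zwilch, which brings dynein to the kinetochore (640.0 and 47.1, -3.13), were as low as many members, while Zwint (3504 and 4057, 0.85) lay on the other side of 0. E2F and DREAM factors had a median of -1.20, with 13 of 20 lower by 2-fold or more and none higher. Mybl1, the A-Myb gene that is known from germinal centre B cells, was lowest (1904 and 25.5, -5.59), followed by the repressor E2f8 (1544 and 97.5, -3.35). Lin54, the subunit of MuvB that reads the CHR, had 641 and 508 (0.30), and Nfya, which binds CCAAT, had 639 and 552 (0.42). Both signs turn on the spike-in scale. The listed partners of these subunits lay below 0. For MuvB these were Lin9 (-1.85), Lin52 (-1.81), Lin37 (-1.09) and Rbbp4 (-0.29), and for NF-Y Nfyb (-1.67) and Nfyc (-0.49).

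Lists of other parts of the same machines, and of mitotic exit, had medians nearer to 0 than that of the members. The list of the anaphase-promoting complex holds its subunits and Fzr1, a coactivator like Cdc20, with signals of 3171 and 1270 (-0.69). Its 15 genes had a median of -0.31, and 2 were at least 2-fold lower, Cdc23 (936 and 197, -1.61) and Anapc1 (4189.8 and 1206, -1.16). The members Cdc20 and Ube2c, which work with the complex, had -3.76 and -2.91. Cohesin genes had a median of -0.75, with 3 of 10 at least 2-fold lower, and condensin II a median of -0.74, with 1 of 3. Centrosome and augmin genes had a median of -0.995, with 8 of 19 lower and 3 higher by 2-fold or more, the highest being Haus8 (2700.5 and 5858, 1.75). Phosphatases of mitotic exit, listed with the phosphatase inhibitors Ensa (-0.86) and Arpp19 (0.09), had a median of -0.07 over 13 genes. None was 2-fold lower and 1 was higher, Cdc14a (489 and 656, 1.06). The sign of that median turned under other settings (0.21 as the median over probes). None of these differences between lists was tested. Beside these counts, 17.0% of all detected genes were lower and 21.4% higher by 2-fold or more.

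Regulators of the earlier cell cycle went both ways. Of 8 detected genes of 9 in the G1 list, 4 were at least 2-fold lower, with Ccne1, cyclin E1, lowest (1612 and 214, -2.28). Ccnd1, cyclin D1, was higher, with signals of 226 and 3633, a difference of 4.64. Of 15 detected inhibitors of 16, 4 were at least 2-fold lower and 3 higher, with a median of -0.22. Over all detected genes, 17.0% were lower and 21.4% higher by 2-fold or more, so such counts are not particular to these lists. Cdkn1a, the p21 inhibitor of cyclin-dependent kinases, had 273 and 5689, a difference of 5.01, and Rbl1, the p107 pocket protein of DREAM, had 944 and 78.6 (-2.95). Ccnd1 and Cdkn1a remain above 0 on the spike-in scale, whereas Klf4 (7651 and 19425, 1.98), Cdkn1c (181 and 255, 1.13), Haus8 and Cdc14a do not.

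**Figure D5:**
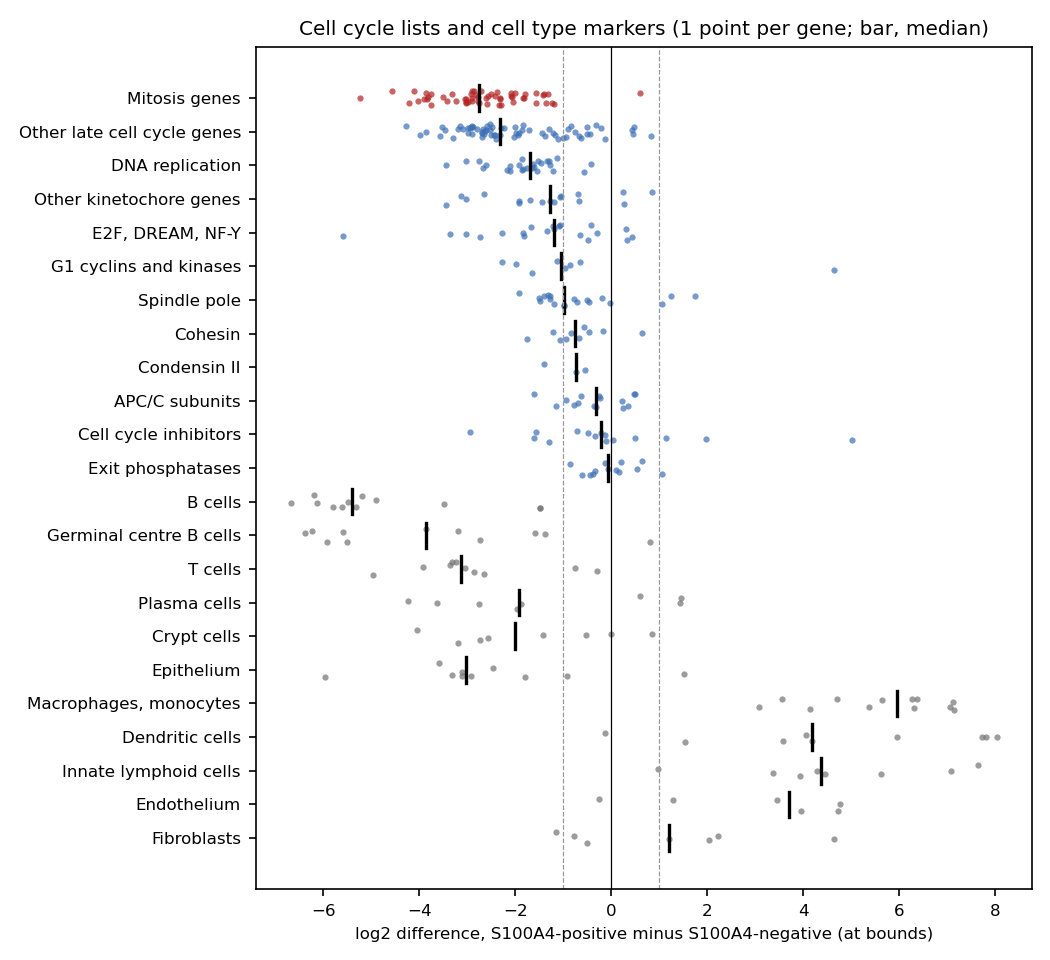
Log2 difference (positive minus negative, x axis) of each detected gene of the mitosis set, the other cell-cycle lists and the cell type marker lists, 1 point per gene at its bound where it was seen on 1 array, with a bar at each median and dashed lines at 2-fold. Medians run from -2.76 for the mitosis set through -1.70 for replication to -0.31 for the anaphase-promoting complex with Fzr1, and lie at -5.41 for B cell and 5.95 for macrophage markers.

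Markers of cell types also differed between the 2 fractions, with some lists lower and others higher in the positive cells. All 12 B cell markers were lower by 2-fold or more in the positive cells, with a median of -5.41, and their summed scaled signal (each gene's signal over its array's 75th percentile) was 609.8 in the negative and 60.7 in the positive fraction. Of 11 germinal centre B cell markers, 10 were lower to that degree, with sums of 82.7 and 29.0 and a median difference of -3.87. Rgs13 and Nuggc of that list were not well above background in the positive fraction. Bcl6 (10036 and 2489, -1.38) and Basp1 (4057 and 4599.8, 0.82) were still bright there, and Mybl1 belongs to this list as well as to the E2F and DREAM list. T cell markers were lower for 8 of 10 (sums of 162 and 23.0), and plasma cell markers lower for 5 and higher for 2 of 8 (sums of 186 and 71.8).

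Some markers of the dividing crypt epithelium were also lower. Of 10, 8 were detected and 5 at least 2-fold lower, with sums of 17.6 and 3.51. Lgr5, Olfm4, Ascl2 and Smoc2 were seen on the negative array alone and Axin2 and Sox9 on neither. Of these, Lgr5 (35.3) and Olfm4 (21.8) were dim on the negative array, and Rnf43 had 0.84 on the scale used. Without Cdca7, the brightest gene, the sums were 9.44 and 3.01, and Myc (2619 and 184) was the next brightest on the negative array. Cdca7 and Myc are also expressed by other cycling cells. General epithelial markers were lower for 8 and higher for 1 of 10, with sums of 25.2 and 3.49. In the other direction, all 12 macrophage markers (sums of 9.32 and 597), 8 of 9 detected dendritic cell markers (119 and 213), 7 of 8 innate lymphoid markers (9.07 and 318), 5 of 6 endothelial markers (0.63 and 3.74) and 4 of 7 fibroblast markers (19.1 and 76.7) were higher by 2-fold or more in the positive cells. Single bright genes carried some of these sums: without Ccr7, the dendritic marker that was not higher, that list summed to 7.55 and 112, and without Thy1, which T cells express as well, the fibroblast list summed to 0.99 and 2.27. Of the fibroblast collagens, Col1a1 was seen on the negative array alone, and Col1a2 (-0.78) and Col3a1 (-0.51) lay below 0. The part of this shift in cell types in the lower signals of the mitotic genes was not tested.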

How the data were processed

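Per the labels' protocols, total RNA of sorted S100A4-negative and S100A4-positive Peyer's patch cells was amplified with a low-input kit, labelled with Cy3 and read on 2 arrays (Agilent design 74809), 1 for each fraction. The deposited scanner tables hold background-subtracted processed signal intensities per spot, with an error estimate and flags, from Agilent Feature Extraction 10.7.1.1 per the file headers (9.5.1.1 per the submitters' processing notes). The authors' deposited value table of intensities, whose normalization is not given in the sources used, served as an alternative.

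Control spots and spots with the deposited outlier flag (138 and 80, none of a member) were removed. Signals were log2-transformed and centred on each array's 75th percentile over 59305 spots, and replicate spots were averaged. Probes were named by accession (33895), symbol (9464) or synonym (489) through a RefSeq gene table, and 12757 stayed unnamed. Each gene was represented by its brightest probe (mean signal of both arrays) of those called well above background on either array, which left 15278 genes, 13005 of them measured on both. For a gene seen on 1 array, "at least" folds divide by the dim probe's signal or, if that is lower, by the lowest signal called well above background on that array (16.1 negative, 15.7 positive). The number of arrays limits the precision. The spread between spots within each array, from 285 probes spotted 10 times, gave a standard deviation of 0.11 for a difference of single spots. It does not cover amplification, labelling or variation from array to array. Where a gene has several RefSeq promoters, the first was searched. No test was possible. Members and lists were chosen with earlier results of these data known. Every member is named. Other lists give genes with the largest differences measured on both arrays. The remaining genes named from those lists were chosen after their values were seen. Among them are Ncaph2, Cenpn, Cenpq, Fzr1, Ensa, Arpp19, Lin54, Nfya and their partners, Bcl6, Basp1, Rgs13, Nuggc, Ccr7, the collagens and the crypt genes. The steps were checked on simulated data. Tools were Python 3.11.15, numpy 2.4.6, pandas 2.3.3, R 4.3.3 and limma 3.58.1. Some genes of the marker lists are not reported here.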

Additional observations from a re-analysis of the deposited data

How the results depend on the processing

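No paired analysis was possible because each group has 1 array, and for the same reason no replicate could be left out. Over 10 alternative settings the members at least 2-fold lower numbered 52 to 57 and those at least 4-fold lower 34 to 56, and none was 2-fold higher. The shares of all genes moved as well. At least 2-fold lower were 11.5% (normexp) to 82.6% (spike-in scale), and at least 4-fold lower 2.58% to 64.3% in the same settings. At least 2-fold higher were 4.03% (spike-in scale) to 22.4% (median over probes). The counts of 57 and 56 are those of the spike-in scale. Nek2, Kif15, Ttk and Kifc1 have no value where only probes seen on both arrays count, which left 53 members. In every setting that gave them a value, 56 members were below 0, all but Pttg1, and Kif2c, Kifc1, Racgap1 and Pttg1 were under 2-fold lower in at least 1. The median moved under 3 settings. Without scaling it was -3.40, and by role -4.45 (entry), -3.55 (transcription), -2.98 (passenger complex), -2.80 (kinetochore), -2.98 (checkpoint), -3.40 (anaphase), -3.25 (spindle), -3.45 (cytokinesis) and -3.36 (chromosome structure). On the spike-in scale it was -5.20, and in the same order -6.26, -5.36, -4.79, -4.61, -4.79, -5.21, -5.06, -5.26 and -5.17. Both settings shift every difference measured on both arrays by 1 amount, and all-gene medians at bounds were -0.58 and -2.39. After normexp correction the median was -2.21, with -2.88 for entry, -1.70 for kinetochore, -1.62 for checkpoint, -1.47 for spindle and -2.16 for cytokinesis. With probes seen on both arrays alone, entry had -3.42, since Nek2 drops out. As the median over a gene's probes, entry had -3.56, transcription -2.55 and cytokinesis -2.47, and the cause was not tested. The other role medians moved by less than the scanner's error. Among single members 160 values moved by more than that error and 406 did not, and among the other lists 26 medians moved and 84 did not, with no change of sign in a value past 2-fold. Dimness limits the values: detected members stood at a median of 142 (negative array) and 13.9 times (positive array) the lowest detected signal. One array per fraction leaves the spread between mice unknown.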

Other observations

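A few late cell-cycle genes outside the list of members were not lower in the positive fraction, as Pttg1 was not. Cenpl, a centromere protein, had a signal of 757 in the negative and 861 in the positive fraction (log2 difference 0.82), Gas2l3, which links actin to microtubules, had 145 and 129.9 (0.47), Pif1, a DNA helicase, had 713 and 627 (0.45), and Mastl, the Greatwall kinase, had 22.9 and 19.9 (0.43), close to the lowest detected signals. All 4 values are below 0 on the spike-in scale.

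Augmin, the complex that branches spindle microtubules, held members on both sides of 0 on the scale used. Haus6 had 389 and 87.8 (-1.51) and Haus5 had 1652 and 403 (-1.40), whereas Haus2 had 94.8 and 145 (1.25) and Haus8 had 2700.5 and 5858 (1.75), and Haus7 had 651 and 412 (-0.03). Haus2 and Haus8 are below 0 on the spike-in scale. The augmin genes named here were singled out after their values were seen.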
